A study of Mus musculus with 6 samples.

Results

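The miR-17-92 cluster is a polycistron, a single primary transcript that is cut into 6 miRNA hairpins, and 8 of its mature miRNAs were followed here in exosomes, the small vesicles that cells release. The members were chosen by cluster membership and not by a cut on their values, though with earlier results of these data known, as miR-17-5p, miR-17-3p, miR-18a-5p, miR-18a-3p, miR-19a-3p, miR-19b-3p, miR-20a-5p and miR-92a-3p, out of 1881 mouse miRNAs on the array. All 8 were named on the array, and the probes of miR-17-5p were shared with miR-106a-5p. The exosomes came from the supernatant of RAW 264.7 cells, a mouse macrophage line transformed by Abelson leukaemia virus. The LPS group (n = 3) held exosomes of cells given 2 µg/mL lipopolysaccharide, a bacterial cell wall component that activates Toll-like receptor 4, with supernatant taken after 72 h. The control group (n = 3) held exosomes of untreated cells of the same line, for which no incubation time was recorded. Each sample was hybridised to its own one-colour Agilent miRNA array. The labels do not state whether the replicates were separate cultures, so the p-values reflect the spread among these 6 samples only, and that spread may be technical.

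A mature miRNA pairs with messenger RNAs mainly through its seed, bases 2 to 8 from its 5′ end, and lowers their translation and stability. The miR-17-92 cluster is known for promoting proliferation and survival: it is a target of Myc, it was named an oncogenic cluster from lymphoma, and its members repress the pro-apoptotic Bcl2l11 and cell cycle inhibitors such as Cdkn1a. In the myeloid lineage, miR-17-5p and miR-20a-5p are known to restrain monocyte to macrophage maturation. After processing by Drosha and Dicer each hairpin can give a 5p and a 3p arm, of which one usually accumulates and the other is largely degraded.

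The mature sequences are printed because the seeds sort the members into target families and because near-identical members limit what a probe can tell apart. They are RefSeq sequences of build GRCm38.p6, given 5′ to 3′ with the seed in capitals.
mmu-miR-17-5p: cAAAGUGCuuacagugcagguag
mmu-miR-20a-5p: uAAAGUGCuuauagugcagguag
mmu-miR-18a-5p: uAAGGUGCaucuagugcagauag
mmu-miR-19a-3p: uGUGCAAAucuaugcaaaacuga
mmu-miR-19b-3p: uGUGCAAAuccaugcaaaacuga
mmu-miR-92a-3p: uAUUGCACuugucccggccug
mmu-miR-17-3p: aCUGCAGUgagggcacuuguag
mmu-miR-18a-3p: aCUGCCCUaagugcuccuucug
All 8 were found in the RefSeq table, which holds 1679 mature mouse miRNAs. miR-17-5p and miR-20a-5p shared the seed AAAGUGC, which 7 mature miRNAs of the table carry. miR-19a-3p and miR-19b-3p shared GUGCAAA, which no other miRNA of the table has. The seed of miR-92a-3p, AUUGCAC, was found in 6 miRNAs, and that of miR-18a-5p, AAGGUGC, in 2. The passenger arms miR-17-3p (CUGCAGU, in 3 miRNAs) and miR-18a-3p (CUGCCCU, in 2 miRNAs) shared a seed with no other member.

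RefSeq places the 6 hairpins on the plus strand of mouse chromosome 14 within 836 bases, in the order Mir17, Mir18, Mir19a, Mir20a, Mir19b-1 and Mir92-1. Of these, 1 hairpin, Mir92-1, lies wholly within the host gene Mir17hg as annotated there, and Mir19b-1 overlaps it. miR-19b-3p and miR-92a-3p are each also made from a second hairpin on chromosome X, Mir19b-2 and Mir92-2 of the miR-106a-363 cluster, so their signal cannot be assigned to 1 locus.

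**Figure D1:**
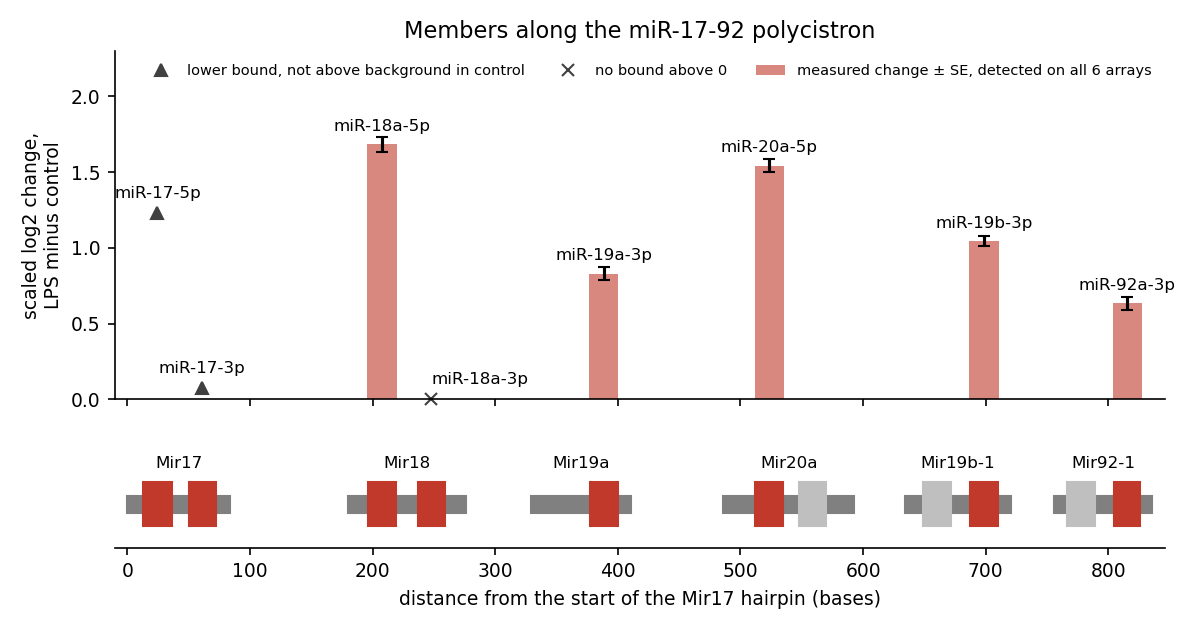
The lower axis gives the distance in bases from the start of the Mir17 hairpin, with the 6 hairpins as dark grey bars, the arms of the 8 members in red and other arms of the RefSeq table in light grey. Above each arm, bars show the scaled log2 change, LPS minus control (± SE, 3 arrays per group), of the 5 members detected on all arrays; triangles show the lower bounds of miR-17-5p and miR-17-3p and the cross marks miR-18a-3p, which has no bound above 0. The highest bars, miR-18a-5p at 1.68 and miR-20a-5p at 1.54, are not neighbours: the Mir19a hairpin, with miR-19a-3p at 0.83, lies between them.

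The probes set a limit on how far members can be separated. They are shown 5′ to 3′ as DNA, as deposited in the array files, for the pairs of members that differ least.
probe of mmu-miR-17-5p: ctacctgcactgt
probe of mmu-miR-20a-5p: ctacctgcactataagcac
probe of mmu-miR-19a-3p: tcagttttgcatagatttgca
probe of mmu-miR-19b-3p: tcagttttgcatggatttgc
The miR-17-5p probe is 13 bases long and pairs with bases 11 to 23, so it does not reach the seed. It matched the X-linked miR-106a-5p with 0 mismatches, so the pair is measured as 1, and miR-20a-5p and miR-20b-5p with 1 mismatch each. The miR-20a-5p probe of 19 bases had 1 mismatch to miR-17-5p and to miR-20b-5p. The miR-19a-3p and miR-19b-3p probes differed from the other member of the pair by 1 mismatch. The probes of miR-18a-5p and miR-92a-3p had at least 2 mismatches to their nearest relatives among the miRNAs compared. How much of a signal came from such a relative was not tested. The files place probes on build mm9, where the miR-20a-5p probe maps to chromosome 14 at 115443410 to 115443427, while the miR-17-5p probe maps to chromosome 14 at 115442916 to 115442928 and to chromosome X at 50095694 to 50095706.

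The LPS arrays were brighter than the control arrays as a whole, and this bears on every level below. The 75th percentile signal, taken over the 198 miRNAs that every array detected, was 2229 ± 180 intensity units in LPS and 477 ± 41.0 in control (SD, n = 3 each), a 4.67-fold difference; an exact permutation test (two-sided) gave p = 0.1, which is as low as 3 arrays against 3 can reach. The 4 spiked-in RNAs did not follow, with 2377 ± 181 in LPS and 2707 ± 83.9 in control (SD, n = 3 each). An LPS array detected 428 ± 17.1 miRNAs and a control array 219 ± 8.14 (SD, n = 3 each). In bulk samples of this kind, more vesicles and more RNA per vesicle cannot be told apart, and other differences between the groups were not tested. Changes are therefore given after dividing each array by that percentile, which makes them relative to the other exosomal miRNAs of the same array. All arrays shared 1 slide and 1 scan; LPS 1 and the 3 control arrays lay in its first row and LPS 2 and LPS 3 in the second. The feature size fraction in the file headers was 0.812 to 0.829 on LPS arrays and 0.6 on control arrays, where the headers mark it as a default. Its part in the results was not tested. miR-155-5p, the miRNA best known to be induced by LPS in macrophages, was higher in LPS by 4.18 on the scaled log2 scale (SE 0.07, limma adjusted p = 1.72e-08). Of 6 macrophage and blood-cell miRNAs, 5 were detected on all arrays, with a summed signal of 55606 to 70621 in LPS and 4691 to 5731 in control. Most of that sum came from miR-21a-5p (mean 39375 in LPS, 3287 in control) and miR-146a-5p (22022 and 1849). The others were dimmer: miR-223-3p gave means of 421 and 42.6, miR-142a-3p 283 and 37.1, and miR-142a-5p was detected in LPS only. Of 6 serum, red-cell and liver miRNAs on the array, 5 were detected on none, among them miR-451a, miR-144-3p and miR-122-5p; miR-192-5p was detected in LPS only, and the summed signal was 207 to 230 in LPS and 54.5 to 57.3 in control. Epithelial miRNAs were detected for 1 of 6 and lymphocyte miRNAs for 2 of 3, in LPS only, with sums of 63.7 to 76.7 and 109 to 146 in LPS, and of 10.8 to 15.7 and 2.72 to 4.76 in control. Their part in the members' values was not tested.

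Every member was higher in LPS exosomes than in control exosomes on the array's own scale, and the 5 members detected on all arrays also rose after scaling, 4 of them by more than the median miRNA. A rise before scaling was common: 364 of the 412 miRNAs tested were called higher without scaling. miR-18a-5p and miR-20a-5p rose 3.21-fold and 2.91-fold after scaling, miR-19b-3p and miR-19a-3p rose 2.06-fold and 1.78-fold, and miR-92a-3p rose 1.55-fold. The passenger arms miR-17-3p and miR-18a-3p, and the guide miR-17-5p, were detected on the LPS arrays and on no control array. Detection in LPS alone was common, as the LPS arrays detected 428 miRNAs on average and the control arrays 219. The fit used limma with Benjamini-Hochberg adjustment over all 412 miRNAs tested, and a call needed an adjusted p under 0.05; 65.5% of the 412 were called higher and 26.7% lower. All 8 members were among those called higher, but 3 of them passed the filter through the LPS arrays alone, so their calls are largely set by the filter and only their bounds are read. Of the 198 miRNAs that every array detected, 58.1% were called higher, and so were the 5 members of that set. The median change of these 5 members was 1.04 on the scaled log2 scale, beside 0.77 over the 198 miRNAs, whose lower and upper quartiles were −1.63 and 1.49. A higher call was therefore common on these arrays, and the count of members called does not set the cluster apart. A normexp background correction that added an offset of 50 units to each signal before scaling was also run. With it, 27.4% of the 412 were called higher and 68.9% lower, while 6 members were called higher and 2, the passenger arms, lower.

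**Figure D2:**
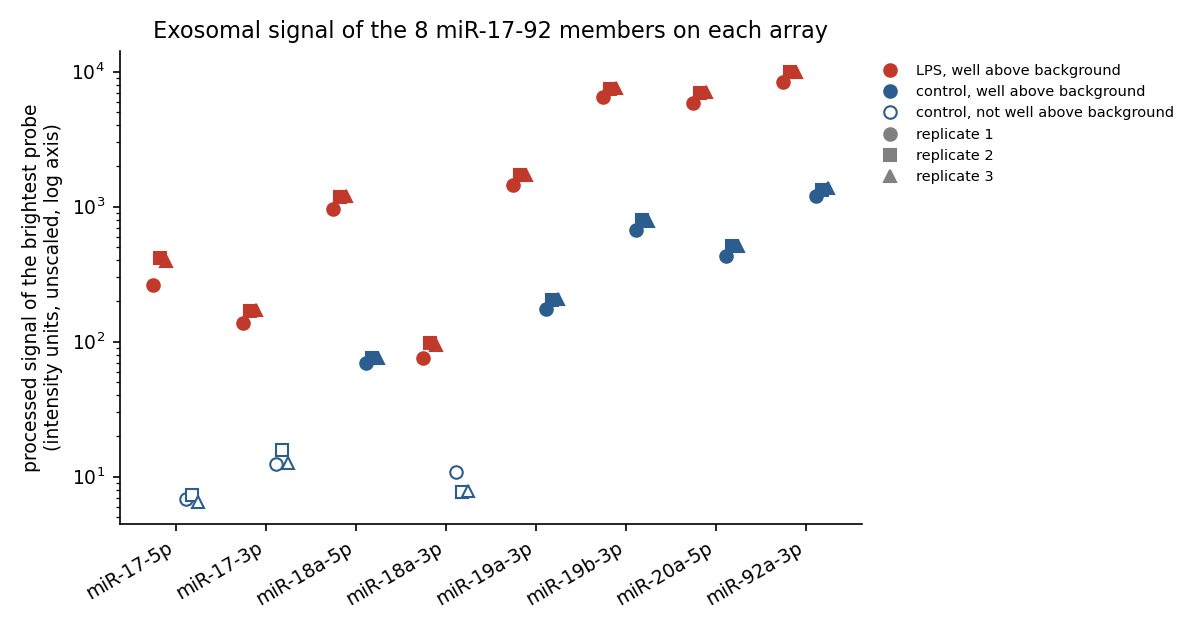
Processed signal of the 8 members in intensity units, unscaled and on a log axis, with the 3 LPS arrays (red) left of the 3 control arrays (blue) for each member; each point is 1 array, and open points were not well above background. The LPS arrays lie above the control arrays for all 8 members, by 7.25-fold for miR-92a-3p to 15.1-fold for miR-18a-5p among the 5 members detected in both groups, before scaling. Of all 412 miRNAs tested, 364 were called higher without scaling.

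Among the guide arms of the miR-17 seed family, miR-20a-5p, which represses E2f1 and Cdkn1a, gave 5845, 6929 and 7071 intensity units on LPS arrays 1 to 3, against 434, 513 and 511 on control arrays 1 to 3. The groups were far apart: the lowest LPS array was above the highest control array by more than the range of either group. The unscaled means were 6615 ± 671 in LPS and 486 ± 44.9 in control (SD, n = 3 each), a ratio of 13.6. After scaling, miR-20a-5p rose 2.91-fold (log2 change 1.54, SE 0.04, limma adjusted p = 9.44e-08). Its dimmer second probe gave a scaled log2 change of 1.56.

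miR-17-5p, the member that gives the family its seed name, gave 263, 420 and 397 units on LPS arrays 1 to 3, against 6.9, 7.3 and 6.5 on control arrays 1 to 3. It was detected on 3 of 3 LPS arrays and on 0 of 3 control arrays, where its signal was below the lowest probe that was well above background, so only a lower bound can be given. It was at least 2.34-fold higher in LPS after scaling, with LPS levels of 360 ± 84.6 units and control levels of 6.87 ± 0.423 units (SD, n = 3 each). The fitted change, which rests on control values below detection, was 3.46 on the scaled log2 scale, against 2.12 without LPS 1 and 2.08 without LPS 3. The bound depended on the scaling: it was 1.88-fold with median centring and 12.5-fold with scaling to the spiked-in RNAs. Its second probe, of 12 bases, was also well above background on 3 LPS arrays and on 0 control arrays, at 97.9 ± 22.1 units in LPS and −6.36 ± 1.69 units in control after background subtraction. LPS 1 was the dimmest of the LPS arrays for every member, and most so for miR-17-5p, whose LPS values had an SD of 0.25 on the scaled log2 scale against at most 0.06 among the 5 members detected on all arrays.

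miR-18a-5p belongs to a separate seed family that differs from the miR-17 family within the seed, and it is the member whose processing by Drosha is known to need the RNA-binding protein hnRNP A1. Its signal was 965, 1179 and 1197 units on LPS arrays 1 to 3, against 69.5, 76.2 and 76.2 on control arrays 1 to 3. The means were 1114 ± 129 in LPS and 74.0 ± 3.86 in control (SD, n = 3 each), a ratio of 15.1. The change after scaling was 1.68 on the log2 scale (SE 0.05, 3.21-fold, limma adjusted p = 1.55e-07), and 1.70 by the second probe. The groups did not overlap. The change was above that of miR-20a-5p here but below it with normexp (0.98 and 1.51), quantile normalization (1.36 and 1.48) and the authors' deposited log2 values (1.46 and 1.69). miR-18b-5p, the X-linked miRNA with the same seed, was detected on no array.

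The miR-19 pair carries most of the oncogenic activity of the cluster in mouse B-cell lymphoma models. miR-19b-3p gave 6536, 7492 and 7606 units on LPS arrays 1 to 3, against 671, 797 and 780 on control arrays 1 to 3. miR-19a-3p gave 1437, 1702 and 1722 units on LPS arrays 1 to 3, against 176, 202 and 208 on control arrays 1 to 3. The groups were apart for both, with means of 7211 ± 588 in LPS and 749 ± 68.7 in control for miR-19b-3p and of 1620 ± 159 in LPS and 195 ± 17.2 in control for miR-19a-3p (SD, n = 3 each). miR-19b-3p rose by 1.04 on the scaled log2 scale (SE 0.03, 2.06-fold, limma adjusted p = 2.79e-07) and miR-19a-3p by 0.83 (SE 0.04, 1.78-fold, limma adjusted p = 2.48e-06). Second probes gave 1.19 for miR-19b-3p and 0.82 for miR-19a-3p.

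miR-92a-3p, the last hairpin's guide arm, known to restrain blood vessel growth through integrin alpha 5 (Itga5), changed less than the other 4 members detected on all arrays, except that miR-19a-3p changed less with normexp (0.60 beside 0.72) and in the authors' deposited log2 values (0.54 beside 0.84). It gave 8434, 9891 and 9896 units on LPS arrays 1 to 3, against 1191, 1333 and 1368 on control arrays 1 to 3. Its means were 9407 ± 843 in LPS and 1297 ± 93.6 in control (SD, n = 3 each), and no LPS array came near a control array. miR-92a-3p rose by 0.63 on the scaled log2 scale (SE 0.04, 1.55-fold, limma adjusted p = 8.56e-06), under the median of 0.77 over the 198 miRNAs. Its second probe gave 0.58. Its place relative to that median depended on the processing, at 0.72 beside 0.11 with normexp.

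The passenger arms were close to background in control, and their change relative to the other miRNAs was poorly defined. miR-17-3p gave 138, 169 and 170 units on LPS arrays 1 to 3, against 12.5, 15.9 and 12.5 on control arrays 1 to 3. miR-18a-3p gave 75.8, 98.3 and 93.6 units on LPS arrays 1 to 3, against 10.9, 7.7 and 7.8 on control arrays 1 to 3. Both were well above background on all LPS arrays and on 0 control arrays, and the groups did not overlap in signal. The bound for miR-17-3p was at least 1.05-fold higher in LPS after scaling, and the bound was 0.846 with median centring, where no direction is readable. With normexp background correction the fitted changes turned round, to −0.54 for miR-17-3p and −0.76 for miR-18a-3p. The offset of 50 units added there is larger than the control signals of both arms, and its part in the reversal was not tested. For miR-18a-3p no bound above 1 was reached after scaling, so the direction of its change relative to the other miRNAs is not readable although the fit called it higher (limma adjusted p = 0.00156). That call ended without LPS replicate 1 (limma adjusted p = 0.351) and without LPS replicate 3 (limma adjusted p = 0.12). Without scaling, the bounds were at least 4.92-fold for miR-17-3p and 2.75-fold for miR-18a-3p. Of the 4 probes of miR-18a-3p, 1 was well above background on the LPS arrays.

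**Figure D3:**
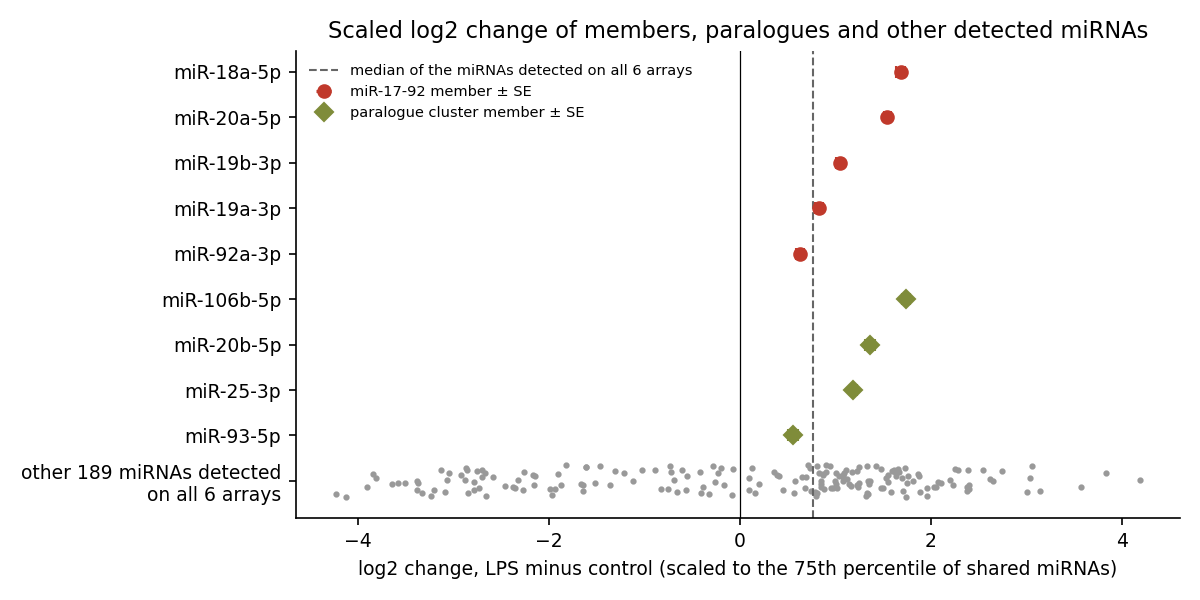
Scaled log2 change, LPS minus control (3 arrays per group), of the 5 members detected on all arrays (red circles ± SE), of 4 miRNAs of the paralogue clusters (green diamonds ± SE; most error bars are smaller than the symbol) and of the 189 other miRNAs detected on all arrays (grey points). miR-92a-3p at 0.63 lies left of the dashed median of 0.77 and miR-18a-5p at 1.68 well to its right, while the grey points spread to both sides of 0.

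The 5 members detected on all arrays did not change by the same amount. The ratio of a pair of members on 1 array does not depend on the factor by which that array is scaled, and 10 such pairs were compared. The ratio of miR-20a-5p to miR-92a-3p was higher in LPS by 0.91 on the log2 scale, or 1.88-fold, and that of miR-18a-5p to miR-92a-3p by 1.05, or 2.07-fold. miR-20a-5p also gained on miR-19a-3p by 0.71 and on miR-19b-3p by 0.50, and miR-19b-3p gained on miR-92a-3p by 0.41. The 2 miR-19 members, which share a seed and differ by 1 base, differed by 0.21 in favour of miR-19b-3p. In all 10 pairs the 3 LPS ratios lay apart from the 3 control ratios, and each exact permutation test (two-sided) gave p = 0.1, as low as the design can reach (0.1 after adjustment over the 10 pairs). Pairs of other miRNAs were not compared. Over the 198 miRNAs the changes had quartiles of −1.63 and 1.49, so such separation is not read as particular to the cluster. Of the 9 distinct alternatives that moved these ratios, 6 left out 1 replicate, which cannot turn a pair whose groups lie apart. Those that could were normexp, the authors' deposited log2 values and the mean over probes, which gave the same ratios as the gene total signal. Under all 9, 7 of the 10 pairs kept their direction, the ratio of miR-20a-5p to miR-92a-3p between 0.80 and 0.93. The other 3 pairs turned round: miR-18a-5p against miR-20a-5p (0.14) became −0.53 with normexp and −0.23 in the authors' deposited log2 values, miR-19a-3p against miR-92a-3p (0.20) became −0.11 and −0.30, and miR-18a-5p against miR-19b-3p (0.64) became −0.09 with normexp. The order of miR-18a-5p and miR-20a-5p, and that of miR-19a-3p and miR-92a-3p, is therefore not settled. Quantile normalization, which changes more than 1 factor per array, put miR-20a-5p above miR-18a-5p as well, at 1.48 and 1.36. In sequence along the transcript, the changes were 1.68 for miR-18a-5p, 0.83 for miR-19a-3p, 1.54 for miR-20a-5p, 1.04 for miR-19b-3p and 0.63 for miR-92a-3p, so they did not follow the order of the hairpins.

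**Figure D4:**
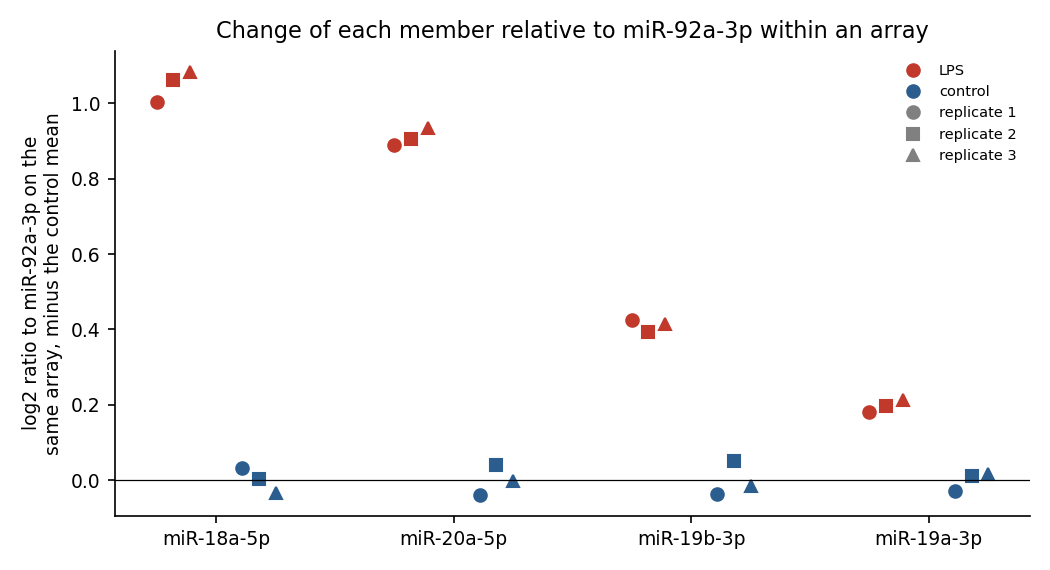
Log2 ratio of 4 members to miR-92a-3p on the same array, minus the mean of the 3 control arrays, with LPS arrays (red) left of control arrays (blue) and each point 1 array. For each member the 3 LPS points lie above the 3 control points, by 1.05 for miR-18a-5p and by 0.20 for miR-19a-3p.

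The remaining arms of the 6 hairpins were not seen. miR-19a-5p, miR-19b-1-5p, miR-20a-3p and miR-92a-1-5p were on the array, and 0 of the 4 were detected on any array, LPS or control. Their summed signal was 14.8 to 23.0 units in LPS and 19.4 to 26.6 units in control, and these ranges overlapped. For the 3p arm of Mir20a and the 5p arms of Mir19a, Mir19b-1 and Mir92-1 the signal was thus at background beside a guide arm that was well above it on all arrays.

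The paralogue clusters give the same seeds from other transcripts. Of the 10 miRNAs counted for the miR-106a-363 cluster on the X chromosome, 9 had probes of their own and 8 of these were detected on no array. The other, miR-106a-5p, shares the probe of miR-17-5p. miR-19b-3p and miR-92a-3p, which this cluster also encodes, are counted with the members. The output of the cluster is therefore not readable from these counts. The exception among the 9, miR-20b-5p, differs little from miR-20a-5p and miR-17-5p. Mismatches of its probe to these members were not counted, and how much of its signal came from them was not tested.
mmu-miR-20b-5p: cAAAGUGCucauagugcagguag
mmu-miR-106b-5p: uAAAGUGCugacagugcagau
mmu-miR-93-5p: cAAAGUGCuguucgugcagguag
mmu-miR-25-3p: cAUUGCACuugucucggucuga
These RefSeq sequences (GRCm38.p6, seed in capitals) show the shared seeds of the relatives that were detected. miR-20b-5p gave 3451 ± 469 units in LPS and 286 ± 26.9 in control (SD, n = 3 each) and rose by 1.36 on the scaled log2 scale (SE 0.05, limma adjusted p = 6.43e-07). Of the 6 miRNAs of the miR-106b-25 cluster, which lies in an intron of Mcm7, 4 were tested and 4 were called higher, beside 65.5% of all miRNAs tested; 3 of the 4 were detected on all arrays. miR-106b-5p rose by 1.74 (SE 0.05, limma adjusted p = 1.05e-07), miR-25-3p by 1.19 (SE 0.04, limma adjusted p = 1.95e-07) and miR-93-5p by 0.56 (SE 0.05, limma adjusted p = 6.76e-05), all on the scaled log2 scale. miR-106b-3p was detected in LPS but well above background on no array, so its direction is not readable. A range of changes was thus seen within 1 seed: for AAAGUGC it ran from 0.56 for miR-93-5p to 1.74 for miR-106b-5p, with miR-20a-5p at 1.54 and miR-20b-5p at 1.36 between them, and for AUUGCAC miR-92a-3p was at 0.63 and miR-25-3p at 1.19. Whether members and relatives differ was not tested. miR-92b-3p, miR-32-5p and miR-367-3p, further miRNAs with the seed of miR-92a-3p, were detected on 0 arrays.

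The profile over the 6 arrays most like the mean of the 5 members, out of 193 other miRNAs detected on all arrays, was that of miR-25-3p, with a root mean square difference of 0.024 on the scaled log2 scale after centring each miRNA. let-7i-5p followed at 0.025, miR-140-5p at 0.037, and miR-223-3p and miR-184-3p at 0.040 each. These likenesses rest on 6 arrays in 2 groups that share the slide and the scaling, so they chiefly list miRNAs with a similar LPS change.

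The median of the 5 members detected on all arrays moved more with the scaling than with any array left out. The median change of the 5 members was 3.46 on the log2 scale with spike-in scaling, 3.27 without scaling and 2.24 with the 75th percentile over all miRNAs, beside medians over the 198 miRNAs of 3.18, 2.99 and 1.96 in the same settings. With median centring it was 0.73 beside 0.45, with quantile normalization 0.75 beside 0.32, and with normexp background correction 0.98 beside 0.11. Over all 24 alternatives the members' median was above that of the 198 miRNAs by 0.26 to 1.06. Most of these alternatives cannot move this gap, so their number adds little. Scaling by 1 factor per array shifts both medians alike, and the gap stayed at 0.28 there and with other filters, floors and variance settings. It moved to 0.35 with the mean over probes, 0.42 with quantile normalization, 0.86 in the deposited log2 values, 0.87 with normexp and 1.06 with the gene total signal. Within the first slide row, which holds LPS 1 and the 3 control arrays, the members' median was 1.08, and with the row as a block it was 1.04.

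**Figure D5:**
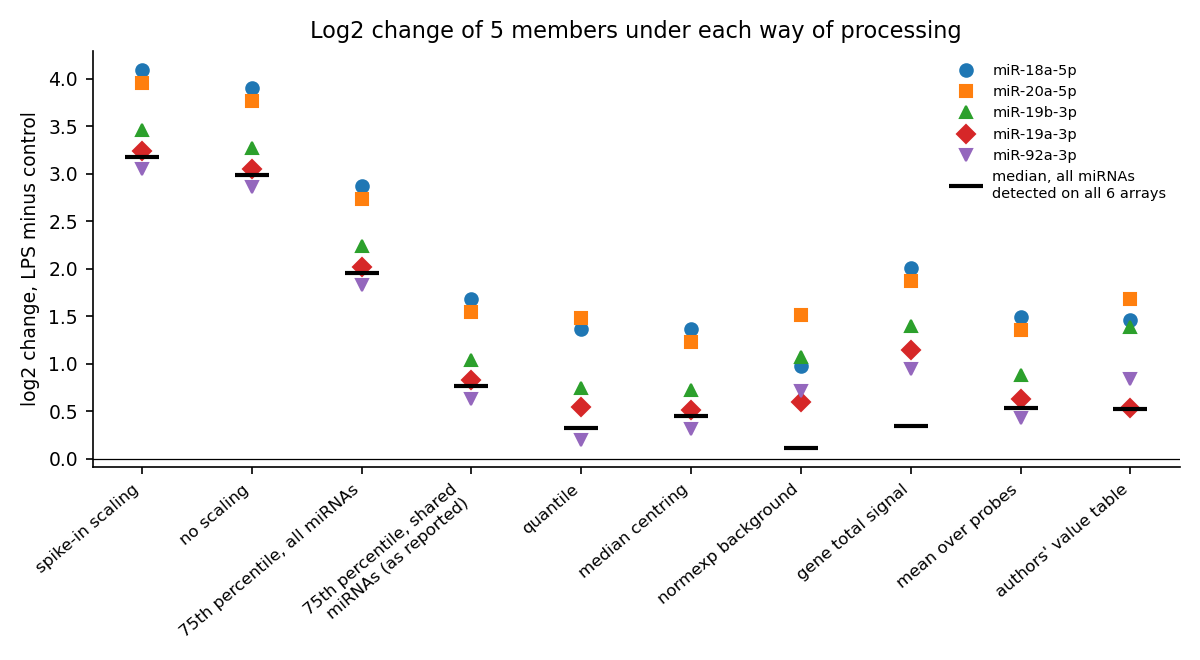
Log2 change, LPS minus control, of the 5 members detected on all arrays (coloured symbols) and the median of all miRNAs detected on all arrays (black bars), under 10 ways of processing along the horizontal axis. All 5 members lie above 0 under each, from 0.20 for miR-92a-3p with quantile normalization to 4.10 for miR-18a-5p with spike-in scaling, and the black bar moves with them between 0.11 (normexp) and 3.18 (spike-in scaling).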

How the data were processed

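Exosomal RNA of 6 samples (3 LPS, 3 control) was hybridised to one-colour Agilent miRNA arrays for mouse. Per the labels' protocols, exosomes were isolated from concentrated supernatant by size-exclusion chromatography. The authors deposited each array's scanner output, whose processed signal is a linear, background-subtracted intensity from Feature Extraction 10.7.1.1 per the file headers (9.1 per the submitters' processing notes), and a table of log2 values, of a normalization not given in the sources used here. That deposited log2 table, with column medians of 2.73 to 2.74 and r of 0.896 to 0.963 with the values below across the 198 miRNAs, served as an alternative.

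For each probe the mean processed signal of its spots was taken, outlier spots aside; no spot was saturated. The brightest probe over the 6 arrays stood for a miRNA. Arrays were scaled by their 75th percentile, computed on the 198 miRNAs that every array detected, then floored at 9.89 (3.31 on the log2 scale), and log2 was taken. The 412 miRNAs detected on 3 of 3 arrays of a group were fitted with limma 3.58.1 in R 4.3.3 (Benjamini-Hochberg, threshold 0.05), a fit checked on simulated data. A member not well above background on any control array is given as a bound: the LPS mean over, per control array, the higher of its own signal and the lowest signal of a probe well above background. Pairs of members were compared by exact permutation tests, and precision is limited by the number of arrays. Same-numbered samples did not deviate together (r = −0.40, −0.22 and −0.28), and the labels name no pairing, so the main fit used none. With 3 arrays per group these correlations cannot exclude a pairing.

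The members, lists, tests and alternatives were chosen with earlier results of these data known. Named miRNAs are the members, the other arms of their hairpins, the paralogue clusters, miRNAs with a member's seed, miR-155-5p, marker lists and the 5 nearest profiles. The alternatives cover scaling, background correction, probe summary, detection, floor, blocks and leaving out replicates; bounds under other scalings were added after the data were seen. Of the 10 miR-106a-363 and 6 miR-106b-25 miRNAs, 9 and 6 were matched in the RefSeq table.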

Additional observations from a re-analysis of the deposited data

How the results depend on the processing

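miR-18a-5p, miR-19a-3p, miR-19b-3p, miR-20a-5p and miR-92a-3p kept their direction under every alternative run (24 each). The number of alternatives adds little. Filters, floors, variance settings and the replicate block left these changes as they were, and leaving out 1 replicate could hardly turn groups that lie apart. These 5 members also kept their call, slide row 1 aside, which has a single LPS array and is read for direction only. Their lowest to highest log2 changes were 0.98 to 4.10, 0.51 to 3.24, 0.73 to 3.46, 1.23 to 3.96 and 0.20 to 3.05. The fitted change of miR-17-5p ran from 0.42 to 4.33 over 23 alternatives. It rests on control values below detection and on a call largely set by the filter, so only the bound of miR-17-5p is read. The members' median of 1.04 moved to 2.24 (percentile over all miRNAs), 3.27 (no scaling), 3.46 (spike-in scaling), 0.75 (quantile), 0.73 (median centring), 0.98 (normexp), 1.40 (gene total signal), 0.89 (mean over probes), 1.38 (deposited log2 table) and 0.85 (well above background as detection), and ran from 0.94 to 1.06 when single replicates were left out. Members called higher numbered 5 when only miRNAs detected on all 6 arrays were tested, beside 115 of all 198. With a replicate left out they numbered 7 to 8, beside 187 to 269 of all miRNAs tested, the lowest being 187 of 416 without LPS replicate 1. With normexp 2 members were called lower, miR-17-3p at −0.54 and miR-18a-3p at −0.76, beside 284 of all 412. The call of miR-18a-3p ended with well above background as detection, where its change was 0, and its change was also 0 within slide row 1. With a replicate left out its change ran from 0.0275 to 1.28, the lowest value being that without LPS replicate 1 (without LPS replicate 3 it was 0.14). Its gene total signal gave 5.21, where the LPS gene totals of 452 to 556 exceed the probe sums of 13.4 to 16.4. The pairs turned round were miR-18a-5p over miR-19b-3p (−0.0945), miR-18a-5p over miR-20a-5p (−0.53) and miR-19a-3p over miR-92a-3p (−0.11) with normexp, and the last 2 with the deposited table (−0.23 and −0.30). The cause of these shifts was not tested.

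With the replicate block, 8 members were called higher, beside 270 of all 412 miRNAs tested, and the members' median was 1.04. The block changed no call of a member. Over all 412 miRNAs tested, 270 higher and 110 lower calls became 113 and 284 with normexp. Of the same 412, lower calls were 59 with the percentile over all miRNAs, 39 without scaling and 38 with spike-in scaling. With no filter they were 269 of 1881. Higher calls were 170 of 356 with well above background as detection and 115 of 198 among miRNAs detected on all arrays. In control, signals below the lowest probe well above background (32.3 ± 1.84 units, SD, n = 3) limit miR-17-5p, miR-17-3p and miR-18a-3p to bounds.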
